A study of Nematostella vectensis with 30 samples.

Results

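The miRNA cargo of the 2 Argonaute proteins of the sea anemone Nematostella vectensis, NveAGO1 and NveAGO2, was compared in early planulae, the ciliated swimming larvae of this animal. The comparison used the 2 NveAGO1 immunoprecipitation (IP) libraries and the 2 NveAGO2 IP libraries of that stage, 4 of the 18 IP libraries and of the 30 samples of the series. The 2 early planula IPs made with control rabbit IgG are given as the background. The labels give no strain, genotype or treatment for these larvae, and all 6 libraries share the stage, the IP procedure and the size selection of the RNA. Both antibodies were polyclonal rabbit antibodies raised against protein fragments that differ between the paralogs, and each IP was done on 2 biological samples, with the number of larvae behind each not given in the sources used here. All arms of all annotated miRNAs were taken, 255 in total, made up of 138 guides and 117 stars from 52 previously known miRNAs and 86 that the study annotated anew. Newly annotated arms are named here by their number in that list. Of the 255 arms, 210 had a count in at least 1 of the 4 Argonaute libraries, 45 had none, 3 repeated another arm's counts and were tested once, and 56 were not tested because of low counts, which left 196 arms tested (134 guides and 62 stars).

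An Argonaute protein holds a small RNA and uses it to find complementary transcripts. A miRNA is cut from a hairpin precursor as a duplex of its 5p and 3p strands. The strand that is usually retained is called the guide and its partner the star. Targets are recognised largely through the seed, bases 2 to 8 of the guide. In bilaterian animals most miRNAs pair with their targets through little more than the seed, while in cnidarians such as Nematostella many miRNAs pair along nearly their full length and the Argonaute cuts the target. nve-miR-100 belongs to the miRNA family that cnidarians share with bilaterians, and nve-miR-2022 is shared across cnidarians and acts in the making of stinging capsules.

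The sequences below are those of the arms on which the results turn, as listed in the study's miRNA annotation, in lower case from the 5′ end with the seed in capitals. The arms named first were higher in NveAGO1 IPs, with both arms of nve-miR-100 shown because they went to different proteins.
nve-miR-2022-3p: uUUGCUAGuugcuuuugucccgc
nve-miR-2030-5p: uAGCAUAAcauuguaagagauu
nve-miR-2025-3p: uUUUUUAGcccgcggaaguugu
nve-miR-9425: aAGAACACccaaaauagcuga
newly annotated guide number 58: uGGCAGAUaugguggaaauggu
nve-miR-100-5p: gACCCGUAgauccgaacuugug
nve-miR-100-3p: aCAGGCUCguuucuacggauca
nve-miR-2040a-3p: uUUGUCUCguaacugcccugaag
nve-miR-2040b-3p: uUCGUCUCguaacugcccugaag
The guides below were lower in NveAGO1 IPs.
nve-miR-9414-5p: aACUUGAUcuucaaugaacu
nve-miR-2028-5p: uAAUGUUCcugcuuguuccua
nve-miR-2035-5p: aCAUGGUCuguuacaaggga
nve-miR-9457: uACACAUUcuaagaaaagugcu
newly annotated guide number 51: cACACAUUauacuaagacuca
The 4 precursors of the miR-2024 family and nve-miR-2029 are shown with both arms, since their arms differed in the balance between the proteins.
nve-miR-2024a-5p: aAAAUAUCgguguuggguaaaa
nve-miR-2024a-3p: uUACACAGuaccgauauuguga
nve-miR-2024e-5p: aGAGUAUUggcgcugggcaaaa
nve-miR-2024e-3p: uUGCACAUuaccaauauucuga
nve-miR-2024f-5p: aGAAUAUUgguacugggcaaaa
nve-miR-2024f-3p: uUGCACAUcaccaauguucuga
nve-miR-2024g-5p: aAAAUAUCgguguuggguaaa
nve-miR-2024g-3p: uAACACAGuaccgauauuguga
nve-miR-2029-5p: uACGCAAUcccuagguuaccau
nve-miR-2029-3p: gGUAAACUauggauugcgcuuc

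miRNAs made up a smaller part of the NveAGO1 libraries than of the NveAGO2 libraries, and the size of that gap was not the same in both NveAGO2 libraries. The miRNA counts were 329474 and 271198 in NveAGO1 IPs, 552836 and 531494 in NveAGO2 IPs, and 11132 and 26954 in IgG IPs. Set against the reads that mapped to the genome, they came to 2.84% and 2.64% in NveAGO1 IPs, 5.27% and 11.3% in NveAGO2 IPs, and 0.209% and 0.724% in IgG IPs. NveAGO2 library 2 therefore stood at more miRNA per mapped read than NveAGO2 library 1, and among arms with enough counts its level was higher by a median of 1.18 on the log2 scale over 135 arms, against −0.22 over 112 arms for NveAGO1 library 2 over library 1. Divided by the miRNA counts instead, these medians were −0.12 for NveAGO1 and 0.08 for NveAGO2. For this reason each arm is given on both scales, as counts per 1000000 genome-mapped reads (CPM), which keeps the difference in total miRNA, and as counts per 1000000 miRNA counts (the miRNA share), which describes the makeup of the cargo. The groups do not overlap in the percentage of mapped reads that were miRNA, but an exact permutation test of 2 against 2 libraries cannot go below a two-sided p of 0.333.

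By CPM more arms were lower in NveAGO1 IPs than were higher, and by miRNA share the numbers were close to each other. Arms were tested by the quasi-likelihood test of edgeR over the 18 IP libraries, which share an estimate of the spread, and called at a Benjamini-Hochberg adjusted p under 0.05. By CPM 21 of the 196 arms were higher in NveAGO1 IPs (10.7%) and 73 were lower (37.2%). By miRNA share 45 arms were higher (23%) and 42 lower (21.4%). The 21 higher arms and 42 of the 73 lower arms were called on both scales. A further 31 arms were lower by CPM alone, 24 were higher by miRNA share alone, and no arm was called in opposite directions. The median log2 ratio of NveAGO1 to NveAGO2 over all 196 arms was −1.96 by CPM and −0.39 by miRNA share, and ratios on each scale are to be read against its own median. Arms at 0 in a protein were also set to a floor of 3 counts there, and left out where the other protein had 3 counts or fewer. The median by CPM was then −1.90 over 176 arms. With TMM factors on the miRNA counts the split was 46 higher and 44 lower arms, and with DESeq2's median-of-ratios 43 and 44.

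**Figure D1:**
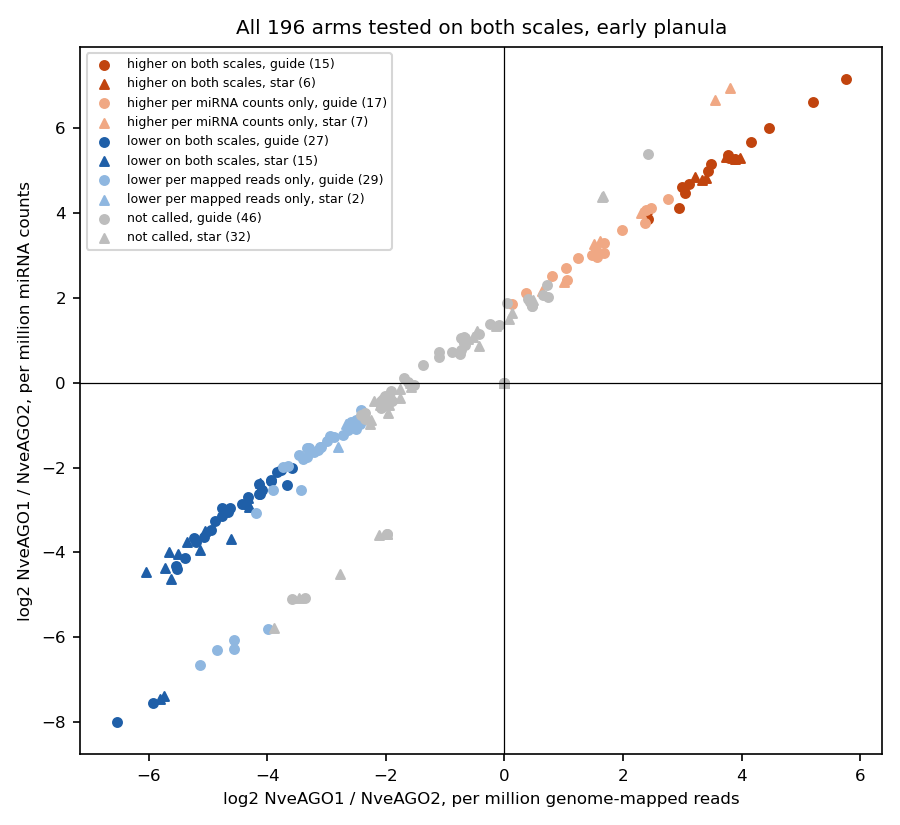
Each of the 196 tested arms is a point (circles are guides, triangles stars), with its fitted log2 ratio of NveAGO1 to NveAGO2 by CPM on the x axis and by miRNA share on the y axis, and the legend gives the number of arms in each class. Points run along a line above the diagonal, with 21 arms higher and 42 lower on both scales, and the separate strings of points away from it are arms at 0 in one protein, whose fitted ratio is no measured size.

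The calls depended on single libraries, of which each protein has 2. Without NveAGO1 library 1 the calls by CPM were 10 higher and 24 lower, and without NveAGO1 library 2 they were 18 and 37. Without NveAGO2 library 1 there were 13 higher and 77 lower arms, and without NveAGO2 library 2 there were 16 and 38. The 10 arms that stayed higher in 11 alternative settings, these 4 included, were the guides nve-miR-2022-3p, nve-miR-2040a-3p, nve-miR-2040b-3p, nve-miR-9425, nve-miR-2024g-5p and numbers 47-1 and 58 of the newly annotated list, and the stars nve-miR-2024a-5p, nve-miR-2024e-5p and nve-miR-2029-5p. Of the 73 lower arms 17 stayed lower in the same 11 settings, among them nve-miR-2028-5p, nve-miR-2046-5p, nve-miR-2024a-3p, nve-miR-9456 and nve-miR-9457. In 90 of the 94 called arms both libraries of the favoured protein stood above both IgG libraries. Among all 196 arms tested, both NveAGO1 libraries did so in 115 and both NveAGO2 libraries in 140. The study listed miRNAs partly for their enrichment over IgG, so this count is not independent of how the arms were chosen.

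Guides higher in NveAGO1 IPs were led by nve-miR-2022-3p. It had 5982 and 4169.6 CPM in NveAGO1 IPs, 92.9 and 95.6 CPM in NveAGO2 IPs, and 32.7 and 81.6 CPM in IgG IPs. Its NveAGO2 level was thus close to the IgG level, while both NveAGO1 libraries stood far above. The difference was 53.8-fold (log2 5.75, SE 1.01, edgeR adjusted p = 0.000207), where SE is the standard error of the log2 ratio, and by miRNA share it was 141-fold. It took 21.1% and 15.8% of the miRNA counts in NveAGO1 IPs and 0.176% and 0.0847% in NveAGO2 IPs. nve-miR-2030-5p had 3367 and 3512 CPM in NveAGO1 IPs, 609 and 681 CPM in NveAGO2 IPs, and 45.5 and 89.9 CPM in IgG IPs. The groups did not overlap and both Argonautes stood above IgG, with a 5.33-fold difference (log2 2.42, SE 0.86, edgeR adjusted p = 0.0196). That call was lost whichever library was left out, as the edgeR adjusted p was 0.0687 and 0.0744 without NveAGO1 library 1 or 2 and 0.088 and 0.0926 without NveAGO2 library 1 or 2, with the ratio above 0 in each.

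nve-miR-2025-3p showed 826 and 557 CPM in NveAGO1 IPs, 50.6 and 124 CPM in NveAGO2 IPs, and 12.2 and 56.1 CPM in IgG IPs. NveAGO1 was above NveAGO2 in each library, and NveAGO2 library 1 fell between the IgG libraries (log2 2.99, SE 0.87, edgeR adjusted p = 0.00496; 0.0514 without NveAGO1 library 1 and 0.0684 without NveAGO2 library 1). nve-miR-2026-5p gave 511 and 870 CPM in NveAGO1 IPs, 83.5 and 178 CPM in NveAGO2 IPs, and 12.2 and 73.3 CPM in IgG IPs. Here too the groups were apart, but at an edgeR adjusted p of 0.0358 (log2 2.40, SE 0.96) the call was lost whichever library was left out (0.0611 and 0.163 without NveAGO1 library 1 or 2, 0.201 and 0.0898 without NveAGO2 library 1 or 2), and also with no filter on low counts (edgeR adjusted p = 0.0657) and with the replicate numbers crossed as a block (0.0641). nve-miR-9425 was much scarcer, at 27.2 and 30.9 CPM in NveAGO1 IPs, 0.953 and 1.70 CPM in NveAGO2 IPs, and 0.376 and 6.17 CPM in IgG IPs. Its NveAGO2 level lay inside the range of IgG (log2 4.46, SE 1.14, edgeR adjusted p = 0.00199).

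The newly annotated guides numbers 58 and 47-1 were the clearest of their list in this direction. Number 58 had 32.3 and 36.2 CPM in NveAGO1 IPs, 0.953 and 0.850 CPM in NveAGO2 IPs, and 0.940 and 2.42 CPM in IgG IPs, so that NveAGO2 did not exceed the background. Its ratio was 36.8-fold (log2 5.20, SE 1.08, edgeR adjusted p = 0.000644), the next in size after nve-miR-2022-3p among the guides called higher. Number 47-1 had 180 and 191 CPM in NveAGO1 IPs, 10.7 and 16.4 CPM in NveAGO2 IPs, and 2.63 and 3.49 CPM in IgG IPs. Both proteins stood above IgG in each library (log2 3.78, SE 1.09, edgeR adjusted p = 0.00467). The other newly annotated guides called higher by CPM, numbers 8 and 80, stayed at or under 10.4 CPM in each Argonaute library.

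For 3 of the guides called higher the background was as large as the signal. nve-miR-100-5p had 2644 and 1953 CPM in NveAGO1 IPs and 185 and 348 CPM in NveAGO2 IPs, but 310 and 3362 CPM in IgG IPs. The groups of the Argonautes were apart (8.62-fold, log2 3.11, SE 0.94, edgeR adjusted p = 0.00654; 0.0514 without NveAGO1 library 1 and 0.0774 without NveAGO2 library 1), yet IgG library 2 exceeded both NveAGO1 libraries. nve-miR-2023-3p likewise had 319 and 147 CPM in NveAGO1 IPs, 25.5 and 31.0 CPM in NveAGO2 IPs, and 98.5 and 1029 CPM in IgG IPs (log2 3.05, SE 0.87, edgeR adjusted p = 0.0045; 0.0648 without NveAGO1 library 1). Newly annotated guide number 8 reached 5.0 and 3.70 CPM in NveAGO1 IPs, 0.953 and 0 CPM in NveAGO2 IPs, and 4.89 and 54.5 CPM in IgG IPs. In these 3 guides the level in IgG library 2 was above that of any Argonaute library, and the part of unspecific RNA in their NveAGO1 level was not tested.

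**Figure D2:**
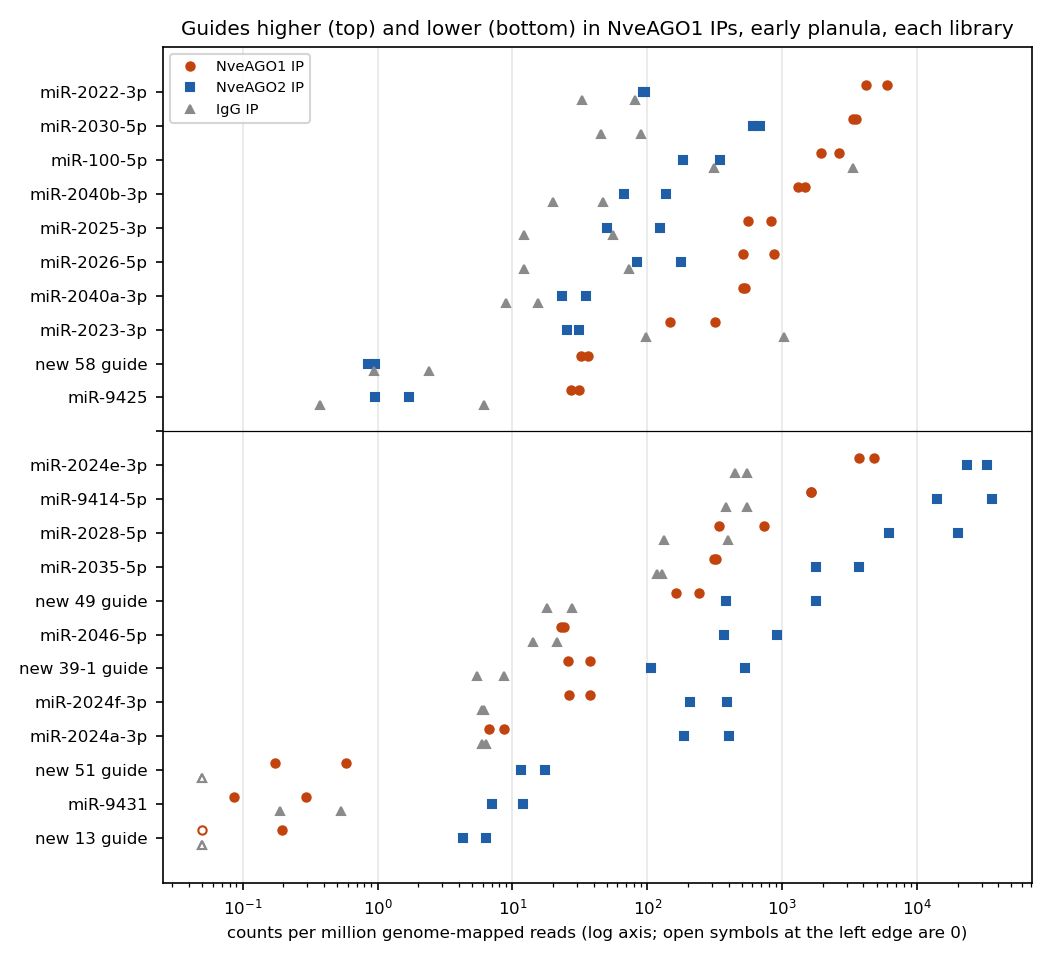
Each row is a guide, with its CPM on a logarithmic axis in each of the 2 NveAGO1 libraries (circles), the 2 NveAGO2 libraries (squares) and the 2 IgG libraries (triangles), and open symbols at the left edge stand for 0. In the 10 guides of the upper block the NveAGO1 libraries sit right of the NveAGO2 libraries and in the 12 of the lower block left of them, and the IgG triangles reach the NveAGO1 level for nve-miR-100-5p and nve-miR-2023-3p.

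Guides lower in NveAGO1 IPs included the most abundant guides of NveAGO2. nve-miR-2024e-3p had 3739 and 4751 CPM in NveAGO1 IPs, 23308 and 32700.0 CPM in NveAGO2 IPs, and 443 and 545 CPM in IgG IPs. It was lower in NveAGO1 IPs by 2.72 on the log2 scale (SE 0.88, edgeR adjusted p = 0.0102), although its CPM in both NveAGO1 libraries was far above IgG. The call was lost without NveAGO1 library 1 (0.102), NveAGO1 library 2 (0.0698) or NveAGO2 library 2 (0.0654), with TMM factors (0.227), and by miRNA share (log2 −1.23, edgeR adjusted p = 0.101). It took 13.2% and 18% of the miRNA counts in NveAGO1 IPs and 44.2% and 28.9% in NveAGO2 IPs. nve-miR-9414-5p, of 20 bases, had 1643 and 1628 CPM in NveAGO1 IPs, 14119 and 36182 CPM in NveAGO2 IPs, and 383 and 544 CPM in IgG IPs. Its NveAGO2 libraries differed from each other by more than its NveAGO1 libraries but remained above them (log2 −3.94, SE 1.09, edgeR adjusted p = 0.00359; 0.0514 without NveAGO1 library 1 and 0.0579 without NveAGO2 library 2). By miRNA share the ratio was −2.30 with an edgeR adjusted p of 0.00924.

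nve-miR-2028-5p gave 728 and 338 CPM in NveAGO1 IPs, 6207 and 20128 CPM in NveAGO2 IPs, and 134 and 395 CPM in IgG IPs. NveAGO1 library 2 was under the higher IgG library, and both NveAGO2 libraries were well above all others (24.7-fold lower in NveAGO1 IPs, log2 −4.63, SE 1.03, edgeR adjusted p = 0.00105). nve-miR-2046-5p was at 24.0 and 23 CPM in NveAGO1 IPs, 371 and 911 CPM in NveAGO2 IPs, and 14.1 and 21.5 CPM in IgG IPs. Its NveAGO1 level was thus hardly above IgG (log2 −4.77, SE 1.13, edgeR adjusted p = 0.0013). nve-miR-2035-5p showed 324 and 314 CPM in NveAGO1 IPs, 1769 and 3677 CPM in NveAGO2 IPs, and 118 and 129 CPM in IgG IPs. Its groups were apart (log2 −3.09, SE 0.98, edgeR adjusted p = 0.00867), but the call was lost without NveAGO1 library 1 (0.084), NveAGO1 library 2 (0.0803) or NveAGO2 library 2 (0.0781), with TMM factors (0.111) and by miRNA share (edgeR adjusted p = 0.0538).

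The newly annotated guides numbers 49 and 39-1 were abundant in NveAGO2 IPs but their calls rested on few libraries. Number 49 had 240 and 164 CPM in NveAGO1 IPs, 385 and 1784 CPM in NveAGO2 IPs, and 18.1 and 27.7 CPM in IgG IPs. The groups did not overlap, yet NveAGO2 library 2 carried most of the difference (log2 −2.42, SE 0.98, edgeR adjusted p = 0.0381; 0.127 without NveAGO1 library 1, 0.201 without NveAGO1 library 2 and 0.526 without NveAGO2 library 2), and the ratio by miRNA share was −0.66 (edgeR adjusted p = 0.431). Its call was also lost with the replicate number as a block (edgeR adjusted p = 0.0816), with the numbers crossed (0.0785), with no filter on low counts (0.0505), with TMM factors (log2 −0.52, 0.563) and with DESeq2's median-of-ratios (log2 −0.70, 0.252). Number 39-1 had 37.4 and 25.8 CPM in NveAGO1 IPs, 106 and 530 CPM in NveAGO2 IPs, and 5.45 and 8.59 CPM in IgG IPs. It passed by little (log2 −3.33, SE 1.42, edgeR adjusted p = 0.0499) and was lost whichever library was left out, at 0.134 and 0.189 without NveAGO1 library 1 or 2 and 0.0576 and 0.438 without NveAGO2 library 1 or 2. It was lost as well with no filter on low counts (edgeR adjusted p = 0.142), with a minimum of 50 counts in at least 2 libraries (0.0561), with TMM factors (0.179) and with DESeq2 (0.197 by genome-mapped reads and 0.532 by median-of-ratios).

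Other guides were found almost only in NveAGO2 IPs, at low levels. Number 51 had 0.173 and 0.585 CPM in NveAGO1 IPs, 11.5 and 17.4 CPM in NveAGO2 IPs, and 0 in both IgG IPs (log2 −5.20). nve-miR-9431 was read 1 and 3 times in NveAGO1 IPs, against 126 and 33 times in NveAGO2 IPs (log2 −5.53, SE 1.32, edgeR adjusted p = 0.0013). Number 13 had 2 counts over both NveAGO1 IPs and 75 over both NveAGO2 IPs, so that NveAGO2 over NveAGO1 was 53.9 per mapped read, with a 95% exact binomial interval of 14.4 to 454 that covers counting error only. Among tested arms 19 were at 0 in both NveAGO1 libraries but not in NveAGO2, and 5 at 0 in both NveAGO2 libraries but not in NveAGO1. A further 8 were at 0 in all 4 of these libraries, since the count filter covers all 18 IP libraries. For such arms the fitted ratio is no measured size, and 9 of the 94 called arms were among them.

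The 10 most abundant guides of each protein overlapped in part. In NveAGO1 IPs their order by mean CPM was nve-miR-2022-3p, nve-miR-2024e-3p, nve-miR-2030-5p, nve-miR-100-5p, nve-miR-2027-5p, nve-miR-9414-5p, nve-miR-2040b-3p, nve-miR-2029-3p, nve-miR-2025-3p and nve-miR-2026-5p. In NveAGO2 IPs the order was nve-miR-2024e-3p, nve-miR-9414-5p, nve-miR-2028-5p, nve-miR-2029-3p, nve-miR-2035-5p, nve-miR-2027-5p, number 49, nve-miR-2030-5p, nve-miR-2046-5p and number 39-1. The 10 highest guides of each library held 81.6% and 83.6% of the miRNA counts in NveAGO1 IPs and 93.8% and 92.9% in NveAGO2 IPs, without overlap. In IgG IPs they held 80.7% and 88.8%, so the NveAGO1 values lay within the range of the background. Guides abundant in both proteins without a call by CPM were nve-miR-2027-5p and nve-miR-2029-3p. nve-miR-2027-5p had 1591 and 2215 CPM in NveAGO1 IPs and 526 and 1654 CPM in NveAGO2 IPs, and nve-miR-2029-3p had 1346 and 966 CPM in NveAGO1 IPs and 1948 and 6712 CPM in NveAGO2 IPs. The libraries overlapped for nve-miR-2027-5p and were apart for nve-miR-2029-3p (log2 −1.91, SE 0.91, edgeR adjusted p = 0.0796).

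Guides of miRNAs that the study lists as shared with other sea anemones and corals stood on the NveAGO1 side. Of the 9, all tested, 7 were higher in NveAGO1 IPs by CPM (nve-miR-100-5p, nve-miR-2022-3p, nve-miR-2023-3p, nve-miR-2025-3p, nve-miR-2030-5p, nve-miR-2037-3p and nve-miR-9425) and none was lower, beside 15 higher and 56 lower of all 134 guides. Their median log2 ratio was 3.05, against −2.43 for the 41 other known guides, of which 4 were higher and 20 lower. By miRNA share 8 of the 9 were higher, with a median of 4.61. nve-miR-2037-3p had 54.3 and 26.5 CPM in NveAGO1 IPs, 2.48 and 5.10 CPM in NveAGO2 IPs, and 0.564 and 14.8 CPM in IgG IPs. It was apart between the Argonautes (log2 3.42, SE 1.13, edgeR adjusted p = 0.0112), but not without NveAGO1 library 1 (0.0836), NveAGO2 library 1 (0.105) or NveAGO2 library 2 (0.0579). nve-miR-2050-3p was at 15.3 and 9.26 CPM in NveAGO1 IPs and 2.19 and 5.53 CPM in NveAGO2 IPs, and passed by miRNA share alone (log2 3.29, edgeR adjusted p = 0.00126). The exception was nve-miR-2036-3p, at 90.9 and 71.3 CPM in NveAGO1 IPs and 55.7 and 137 CPM in NveAGO2 IPs. Its libraries overlapped and the sign of its ratio turned with the scale (log2 −0.25 by CPM and 1.38 by miRNA share). Of the 7 higher guides, 2 are among the 3 guides whose IgG level was high.

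The arms of 1 precursor did not always go to the same protein. Both arms were tested for 62 miRNAs. In 10 both were lower in NveAGO1 IPs and in 1, nve-miR-2026, both were higher. In 5 the arms were called in opposite directions, with the guide lower and the star higher in nve-miR-2024a, nve-miR-2024e and nve-miR-2024f and the guide higher and the star lower in nve-miR-2024g and nve-miR-100. In 14 neither arm was called. By miRNA share opposite calls were made for 6 miRNAs, nve-miR-100, nve-miR-2024a, nve-miR-2024g, nve-miR-2027, nve-miR-2034 and newly annotated number 59.

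**Figure D3:**
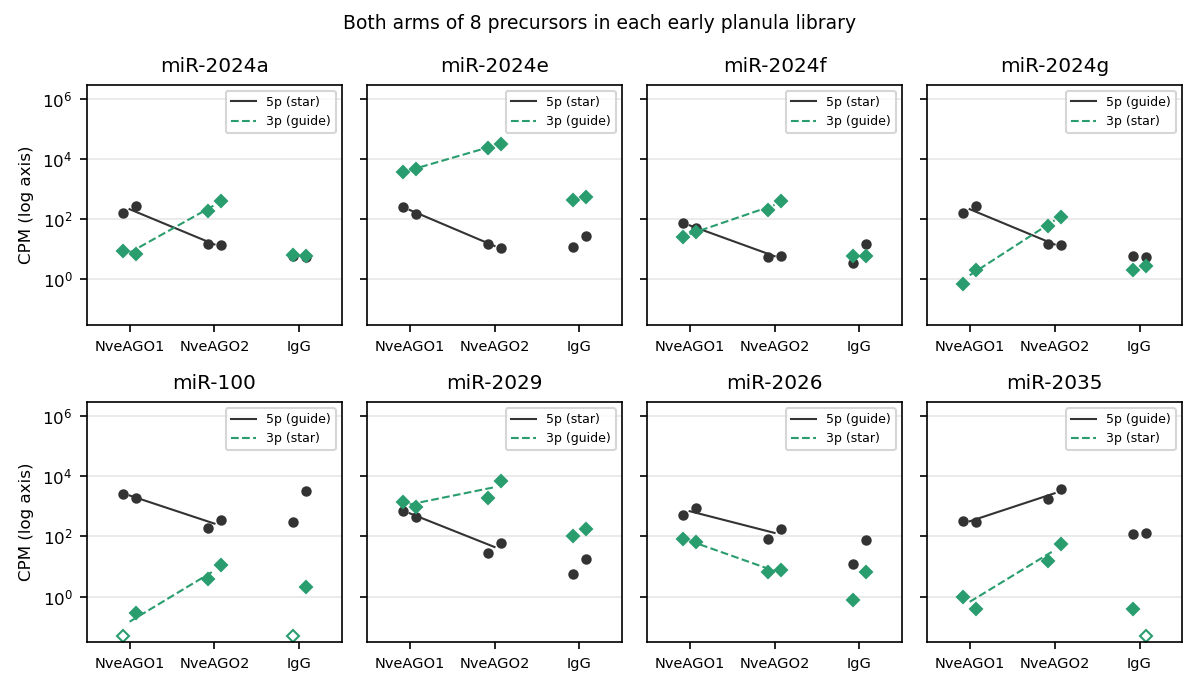
Each panel shows 1 precursor, with the CPM of its 5p arm (circles, solid line through the group means) and its 3p arm (diamonds, dashed line) on a logarithmic axis in the 2 NveAGO1, the 2 NveAGO2 and the 2 IgG libraries, and open symbols at the lower edge stand for 0. From NveAGO1 to NveAGO2 the lines run in opposite directions for the miR-2024 precursors and nve-miR-100. They cross for nve-miR-2024a, nve-miR-2024f and nve-miR-2024g, converge for nve-miR-100 and move apart for nve-miR-2024e. For nve-miR-2026 and nve-miR-2035 they run in the same direction.

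In the miR-2024 family the 5p arms were higher and the 3p arms lower in NveAGO1 IPs, whichever arm was the guide. The 5p arm of nve-miR-2024a, its star, had 162 and 268 CPM in NveAGO1 IPs, 15.3 and 13.6 CPM in NveAGO2 IPs, and 6.20 and 5.64 CPM in IgG IPs. Its 3p arm, the guide, had 8.71 and 6.72 CPM in NveAGO1 IPs, 186 and 400 CPM in NveAGO2 IPs, and 6.39 and 5.91 CPM in IgG IPs. The star was therefore the more abundant arm in both NveAGO1 libraries and the guide in both NveAGO2 libraries, and the guide's NveAGO1 level was close to IgG. The star was higher by log2 3.89 (SE 1.03, edgeR adjusted p = 0.00267) and the guide lower (log2 −5.24, SE 1.08, edgeR adjusted p = 0.000644). nve-miR-2024f showed the same at a lower level, with 74.6 and 49.9 CPM of the 5p star in NveAGO1 IPs and 5.62 and 6.16 CPM in NveAGO2 IPs. Its 3p guide had 26.2 and 37.6 CPM in NveAGO1 IPs and 206 and 388 CPM in NveAGO2 IPs. Both arms were apart between the proteins (log2 3.40 for the star, edgeR adjusted p = 0.00674; log2 −3.22 for the guide, edgeR adjusted p = 0.00809). The star's call was lost without NveAGO1 library 1 (0.0534) or NveAGO2 library 2 (0.0537) and the guide's without NveAGO1 library 1 (0.0994), NveAGO1 library 2 (0.0608) or NveAGO2 library 2 (0.0605). The guide's call was also lost with TMM factors (log2 −1.43, edgeR adjusted p = 0.0978) and by miRNA share (log2 −1.65, edgeR adjusted p = 0.0558).

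In nve-miR-2024e the guide exceeded the star in every library, and the dominant arm was the same in both proteins. Its 5p star had 256 and 150 CPM in NveAGO1 IPs, 14.7 and 11.1 CPM in NveAGO2 IPs, and 12.2 and 27.7 CPM in IgG IPs. The star's CPM in NveAGO2 IPs did not exceed the range of IgG (log2 3.98 between the proteins, SE 1.08, edgeR adjusted p = 0.00328). The guide stood at 23308 and 32700.0 CPM in NveAGO2 IPs. In nve-miR-2024g the naming is turned round, with the 5p arm as the guide. The 5p arm had 162 and 267 CPM in NveAGO1 IPs and 15.3 and 13.6 CPM in NveAGO2 IPs, and the 3p star 0.690 and 2.05 CPM in NveAGO1 IPs and 60 and 122 CPM in NveAGO2 IPs. The star was lower by 6.04 on the log2 scale in NveAGO1 IPs (SE 1.25, edgeR adjusted p = 0.000644). These values are not separate evidence from those of nve-miR-2024a, because the 5p arms of both are identical over 21 of 21 bases and received the same reads to within 1 count per library, and the 3p arms are identical at 21 of 22 bases (U2A, the nve-miR-2024a-3p base first, counted from the 5′ end).

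The signs of the named miR-2024 arms were the same under the genome-mapped, miRNA-count, TMM and DESeq2 scalings. Between family members the 3p arms of nve-miR-2024e and nve-miR-2024f were identical at 20 of 22 bases and shared the seed UGCACAU, and those of nve-miR-2024a and nve-miR-2024f at 16 of 22. The 5p arms of nve-miR-2024e and nve-miR-2024f were identical at 19 of 22 bases. Reads that fit more than 1 of these arms could be split or counted again by the counter, so the separate values of nve-miR-2024a and nve-miR-2024g are uncertain.

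nve-miR-100 was the other precursor with opposite calls. Its 5p guide was on the NveAGO1 side with the high IgG level given above, and its 3p star was at 0 and 0.292 CPM in NveAGO1 IPs, 3.91 and 10.8 CPM in NveAGO2 IPs, and 0 and 2.15 CPM in IgG IPs. In counts the star was read 0 and 3 times in NveAGO1 IPs and 41 and 51 times in NveAGO2 IPs (log2 −5.50, edgeR adjusted p = 0.00166). The star was therefore near the limit of detection in NveAGO1 IPs, and both NveAGO2 libraries stood above both IgG libraries.

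Other star arms stood at higher CPM in NveAGO1 IPs. nve-miR-2029-5p had 719 and 460 CPM in NveAGO1 IPs, 27.9 and 61.0 CPM in NveAGO2 IPs, and 5.45 and 17.7 CPM in IgG IPs (log2 3.73, SE 1.0, edgeR adjusted p = 0.00292). It was the most abundant star in both NveAGO1 libraries, with 41.7% and 33.1% of their star counts, while its guide was not called. nve-miR-2036-5p, the star of the guide whose sign turned with the scale, had 43.5 and 35.5 CPM in NveAGO1 IPs and 2.29 and 6.38 CPM in NveAGO2 IPs (log2 3.21, SE 0.98, edgeR adjusted p = 0.00709; 0.0514 without NveAGO1 library 1 and 0.0763 without NveAGO2 library 1). nve-miR-2026-3p, whose guide was higher as well, had 79.2 and 63.5 CPM in NveAGO1 IPs and 6.39 and 7.86 CPM in NveAGO2 IPs. It was apart between the proteins at an edgeR adjusted p of 0.0139 (log2 3.32), which was lost without NveAGO1 library 1 (0.0612), NveAGO2 library 1 (0.0893) or NveAGO2 library 2 (0.0903).

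Stars lower in NveAGO1 IPs were 17 of the 62 tested, and for 10 of them the guide was lower too. Among the other pairs the guide was lower in 17 with a star not called and in 3 with a higher star. Of all guides tested 41.8% were lower. nve-miR-9414-3p had 2.85 and 7.60 CPM in NveAGO1 IPs, 137 and 291 CPM in NveAGO2 IPs, and 2.07 and 5.37 CPM in IgG IPs, so that its CPM in NveAGO1 IPs was close to IgG (log2 −5.35, SE 1.24, edgeR adjusted p = 0.0013). nve-miR-2035-3p had 0.949 and 0.390 CPM in NveAGO1 IPs and 15.2 and 54.8 CPM in NveAGO2 IPs, and nve-miR-2047-5p had 0.259 and 0.780 CPM in NveAGO1 IPs and 11.2 and 24.4 CPM in NveAGO2 IPs. Both were more than 5 lower on the log2 scale (−5.65 and −5.05, edgeR adjusted p = 0.000644 and 0.00105). The star of newly annotated number 57 was counted 2 times over both NveAGO1 IPs and 57 times over both NveAGO2 IPs, a ratio of NveAGO2 to NveAGO1 of 41.0 (10.8 to 347), and nve-miR-2027-3p 2 and 78 times, a ratio of 56.1 (15.0 to 471), with 95% exact binomial intervals for counting error.

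Stars were a larger part of the miRNA counts in NveAGO1 IPs, at 6.07% and 5.26%, than in NveAGO2 IPs, at 1.41% and 1.35%, with 8.33% and 2.92% in IgG IPs. Most of that gap came from 4 arms. nve-miR-2029-5p and the 5p arms of nve-miR-2024a, nve-miR-2024e and nve-miR-2024f made up 70.3% and 66.7% of the star counts in NveAGO1 IPs, 8.53% and 6.01% in NveAGO2 IPs, and 15.7% and 31.1% in IgG IPs. All other stars together were 1.81% and 1.75% of the miRNA counts in NveAGO1 IPs, 1.29% and 1.27% in NveAGO2 IPs, and 7.02% and 2.01% in IgG IPs. The groups of the Argonautes did not overlap in either measure, but no exact permutation test of 2 against 2 libraries can pass. These 4 stars were chosen after their values were seen. In NveAGO1 IPs the star nve-miR-2024a-5p had 1883 and 2745 counts, and the guide nve-miR-2024g-5p 1883 and 2744. The same reads thus entered both the star counts and the guide counts.

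The ratio of guide to star within each library does not depend on the scale of the libraries. It was compared for the 55 miRNAs with at least 5 star and 20 guide counts over the 4 libraries, in a fit with the library as a block. The ratio was higher in NveAGO1 IPs for 16 miRNAs (29.1%) and lower for 11 (20%), with a median difference of 0.51 on the log2 scale. nve-miR-2024g, among the higher, and nve-miR-2024a, among the lower, rest on the same 5p reads with guide and star names swapped. Their calls in opposite directions are therefore not separate results. nve-miR-2022 had 394 and 222 guide counts for each star count in NveAGO1 IPs and 10.1 and 12.5 in NveAGO2 IPs (log2 difference 4.73, SE 0.83, edgeR adjusted p = 1.1e-07). nve-miR-2040a had 212 and 524 in NveAGO1 IPs and 7.36 and 3.95 in NveAGO2 IPs (log2 difference 5.89, SE 0.85, edgeR adjusted p = 1.4e-10). Newly annotated number 47-1 changed its dominant arm, with 18.5 and 31.2 guide counts for each star count in NveAGO1 IPs and 0.696 and 0.5 in NveAGO2 IPs (log2 difference 5.34, SE 0.84, edgeR adjusted p = 2.8e-09). The remaining miRNAs named in this direction are nve-miR-2024g, nve-miR-100 and nve-miR-2027, with log2 differences of 9.96, 8.72 and 6.94 that rest on 0 to 21 star counts in each NveAGO1 library.

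In the opposite direction nve-miR-2024a had 0.0536 and 0.0251 guide counts for each star count in NveAGO1 IPs and 12.1 and 29.4 in NveAGO2 IPs (log2 difference −8.99, SE 0.87, edgeR adjusted p = 1.9e-21). nve-miR-2029 had 1.87 and 2.10 in NveAGO1 IPs and 69.8 and 110 in NveAGO2 IPs, so its star lay closer to its guide in both NveAGO1 libraries (log2 difference −5.46, SE 0.83, edgeR adjusted p = 1.0e-09). nve-miR-2042 changed its dominant arm on few reads, with 4 and 1 guide counts beside 46 and 21 star counts in NveAGO1 IPs, and 50 and 49 guide counts beside 21 and 17 star counts in NveAGO2 IPs (log2 difference −5.16, SE 1.17, edgeR adjusted p = 5.5e-05). nve-miR-2024f, nve-miR-2024e and newly annotated number 59 were lower by 6.53, 6.64 and 4.68 on the log2 scale. All 12 of these named ratios kept their call in the 3 alternative settings that left no library out. They kept their direction with any 1 of the 4 libraries left out. These ratios were picked for the smallest p in each direction, and some of the other called ratios lost their call in at least 1 of the 7 alternative settings.

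**Figure D4:**
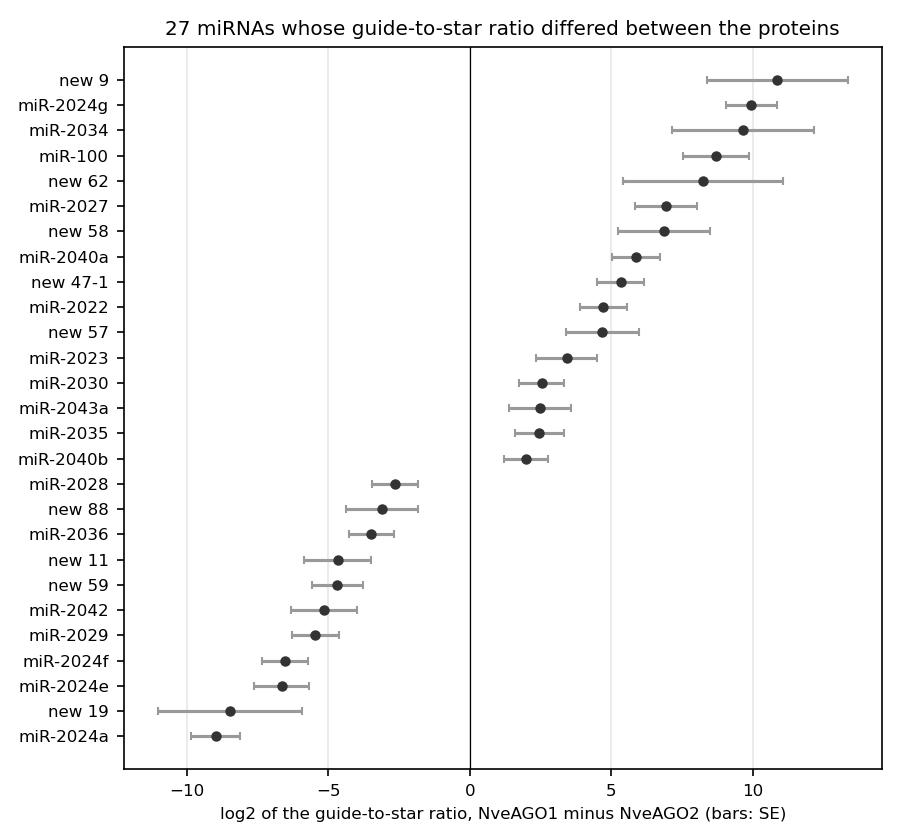
Each row is 1 of the 27 miRNAs whose guide-to-star ratio differed between the proteins, with the fitted log2 difference, NveAGO1 minus NveAGO2, on the x axis and its SE as bars. The 16 miRNAs right of 0 have the larger guide share in NveAGO1 IPs and the 11 left of 0 in NveAGO2 IPs, and the widest bars belong to miRNAs with an arm at 0 in one protein.

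The miR-2040 guides are nearly the same RNA. nve-miR-2040a-3p and nve-miR-2040b-3p are identical at 22 of 23 bases (U3C, the nve-miR-2040a-3p base first), a difference that lies in the seed. nve-miR-2040b-3p had 1312 and 1476 CPM in NveAGO1 IPs, 66.9 and 138 CPM in NveAGO2 IPs, and 19.9 and 47.0 CPM in IgG IPs (log2 3.77, SE 0.95, edgeR adjusted p = 0.00177). nve-miR-2040a-3p had 530 and 510 CPM in NveAGO1 IPs, 23.2 and 35.3 CPM in NveAGO2 IPs, and 9.03 and 15.6 CPM in IgG IPs (log2 4.15, SE 0.97, edgeR adjusted p = 0.0013). Both were higher in NveAGO1 IPs with no overlap, and reads of either could have been counted for the other. Their 5p stars were not called by CPM. nve-miR-2040b-5p had 40.7 and 39.0 CPM in NveAGO1 IPs and 5.82 and 20.4 CPM in NveAGO2 IPs (log2 1.61, edgeR adjusted p = 0.17), and nve-miR-2040a-5p 2.5 and 0.975 CPM in NveAGO1 IPs and 3.15 and 8.93 CPM in NveAGO2 IPs (log2 −1.76, edgeR adjusted p = 0.149).

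The called guides that share a seed with another guide were all lower in NveAGO1 IPs by CPM, as were 41.8% of all guides tested. Number 51 and nve-miR-9457, with the seed ACACAUU, were both lower in NveAGO1 IPs, and nve-miR-9457 had 0.863 and 0.975 CPM in NveAGO1 IPs and 10.3 and 27.4 CPM in NveAGO2 IPs (log2 −4.32, SE 0.99, edgeR adjusted p = 0.0013). nve-miR-2024e-3p and nve-miR-2024f-3p, with UGCACAU, were both lower by CPM but not called by miRNA share, and are identical at 20 of 22 bases. The newly annotated guides numbers 44-1 and 44-2, with CACAAAG, were called on neither scale. Number 44-1 had 69.1 and 39.0 CPM in NveAGO1 IPs and 45.9 and 234 CPM in NveAGO2 IPs, and number 44-2 had 172 and 101 CPM in NveAGO1 IPs and 73.7 and 379 CPM in NveAGO2 IPs. The libraries of the proteins overlapped for both guides, and their sequences overlap as well.

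The called guides were also counted by length and by the pairing of their centre. Over all 134 guides 15 were higher in NveAGO1 IPs (11.2%) and 56 lower (41.8%), with a median log2 ratio of −1.99. Guides of 22 bases or more numbered 81, with 11 higher (13.6%) and 26 lower (32.1%) and a median of −0.68. The 53 guides of 21 bases or fewer had 4 higher (7.55%) and 30 lower (56.6%) and a median of −3.00 (−2.47 over 50 guides with zeros at the floor). Of the 19 guides of 20 bases or fewer, none was higher and 14 were lower (median −3.93, or −3.03 with zeros at the floor), and of the 33 of 23 bases or more, 5 were higher and 6 lower (median 0.40). By miRNA share 32 of all guides were higher and 27 lower. On that scale guides of 22 bases or more had 28 higher and 10 lower, and those of 21 bases or fewer 4 higher and 17 lower, with medians of 0.76 and −1.51. These are counts beside each other, with no test, since guides are not replicates.

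A guide was counted as centrally unpaired where at least 1 of its bases 10 to 12 had no partner in the duplex with its star, as computed with ViennaRNA from the listed sequences. Of the 29 newly annotated guides with an unpaired centre 1 was higher and 5 were lower in NveAGO1 IPs, with a median log2 ratio of 0.05, and of the 54 with a paired centre 3 were higher and 30 lower, with a median of −2.97 (−2.51 over 51 guides with zeros at the floor). Among known guides 13 had an unpaired centre, with 8 higher, 2 lower and a median of 2.99, and 18 a paired one, with 2 higher, 11 lower and a median of −3.47. Over all newly annotated guides 4.76% were higher and 42.9% lower by CPM, and over all known guides 22% and 40%. By miRNA share the newly annotated guides with an unpaired centre had 12 higher and 2 lower, and those with a paired centre 6 higher and 13 lower. On that scale 21.4% of all newly annotated guides were higher and 17.9% lower. nve-miR-2022-3p, nve-miR-100-5p and nve-miR-2040b-3p, called higher, were unpaired, and nve-miR-2028-5p and nve-miR-2024a-3p, called lower, were paired. Other named guides went the other way. nve-miR-2024e-3p and number 49, called lower, were unpaired. Numbers 58 and 47-1, nve-miR-2026-5p and nve-miR-2024g-5p, called higher, were paired.

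**Figure D5:**
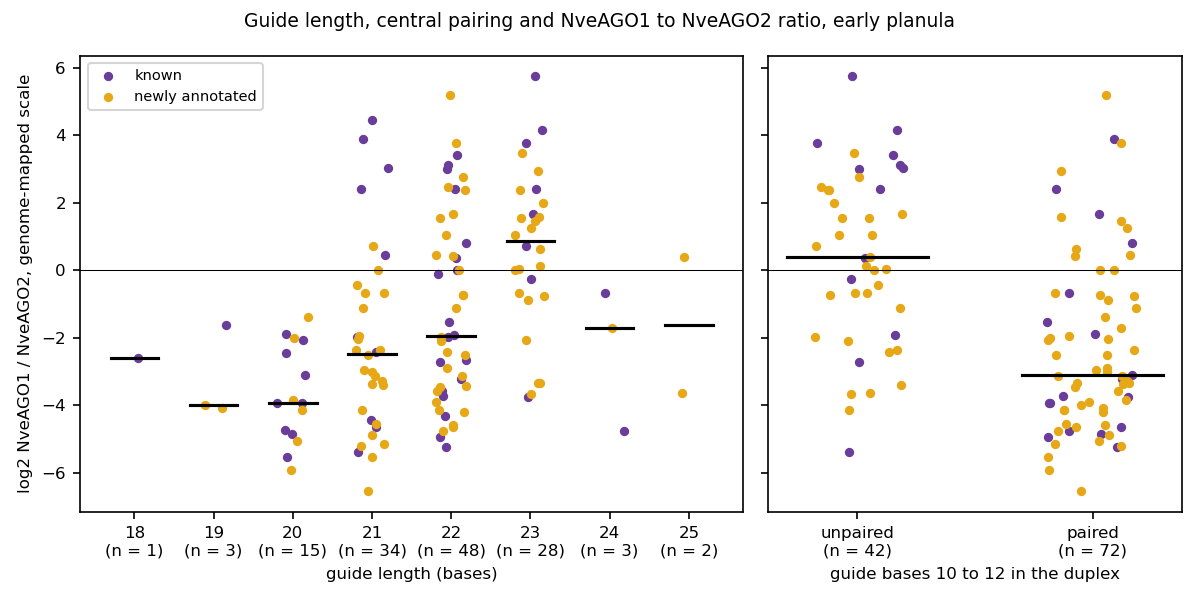
Each point is a tested guide, known or newly annotated, with its fitted log2 ratio of NveAGO1 to NveAGO2 by CPM on the y axis, by guide length in bases (left) and by whether any of bases 10 to 12 is unpaired in the duplex with the star (right), and horizontal bars are medians. Points of 20 bases all lie under 0, and the points with a paired centre lie mostly under 0.

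By first base, the 82 guides that start with U had 8 higher and 39 lower in NveAGO1 IPs (median −2.39, or −2.08 with zeros at the floor), and the 34 that start with A had 6 higher and 10 lower (median −0.34, or −0.68 with zeros at the floor). The 13 that start with C had none higher and 6 lower. Over all 134 guides 11.2% were higher and 41.8% lower, beside 9.76% and 47.6% of those that start with U. U was the first base of 82 of the 134 guides, of 8 of the 15 called higher and of 39 of the 56 called lower. By miRNA share 17 guides that start with U were higher and 14 lower, beside 32 and 27 of all guides. The first bases of abundant guides were also mixed within each protein, as the printed sequences show for nve-miR-9414-5p and nve-miR-2035-5p, which start with A, and nve-miR-2028-5p, which starts with U.

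Newly annotated and known guides had nearly the same median and differed in the number called higher. Of 84 newly annotated guides 4 were higher and 36 lower in NveAGO1 IPs (median −2.02), and of 50 known guides 11 were higher and 20 lower (median −1.95). Both NveAGO1 libraries stood above both NveAGO2 libraries by CPM in 19 of the newly annotated and 12 of the known guides. Many newly annotated guides had few counts, and whether this limited their calls was not tested. By miRNA share the newly annotated guides had 18 higher and 15 lower, and the known guides 14 and 12. Guides that passed on that scale alone include numbers 50, 36-1 and 30. Number 50 had 34.5 and 15.7 CPM in NveAGO1 IPs and 2.38 and 6.80 CPM in NveAGO2 IPs, with an edgeR adjusted p of 0.0555 by CPM and 0.000172 by miRNA share. The newly annotated set was itself chosen in part on these libraries, since a guide had to be enriched in an Argonaute IP over IgG and to exceed its star. The known list was filtered as well. The study dropped earlier miRNAs that failed its criteria of precursor structure and homogeneity or lacked enrichment over IgG.

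The other stages give a view of the same arms in other animals, primary polyps (young settled polyps) and adult males. Of the 21 arms higher in NveAGO1 IPs of early planulae, 18 were higher in primary polyps, where 15.8% of all arms were, and 5 were higher and 1 lower in adult males, where 12.2% were higher. Of the 73 lower arms, 64 were lower in primary polyps, where 48.5% of all arms were, and 41 were lower and 2 higher in adult males, where 30.1% were lower. The counts come from 1 fit with a shared estimate of the spread.

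A test of the difference between stages called no arm between early planulae and primary polyps (0.00% in either direction) and 7 between early planulae and adult males, 3 with a higher ratio in early planulae (1.53%) and 4 with a lower one (2.04%). With edgeR, 14 of 196 arms had an unadjusted p under 0.05 against primary polyps and 40 against adult males. The median difference of the log2 ratios was 0.16 against primary polyps and −0.27 against adult males. By miRNA share these medians were 2.04 and 2.18, and the calls were 47 and 74, so the number of stage differences rests on the scale. Among named guides, nve-miR-100-5p had the smallest p against primary polyps (log2 −2.71, edgeR adjusted p = 0.572).

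nve-miR-2040a-3p differed most clearly between early planulae and adult males. In adult males it had 226 and 313 CPM in NveAGO1 IPs and 946 and 1580.4 CPM in NveAGO2 IPs, so the order of the proteins was the opposite of that in early planulae. Its log2 ratio was 4.15 at the early planula stage, 3.09 in primary polyps and −2.23 in adult males, and the difference between early planulae and adult males was 6.38 (SE 1.32, edgeR adjusted p = 0.00308), which kept its call in every setting. nve-miR-2025-3p and nve-miR-2026-5p also had ratios that were smaller in adult males, with 5312 and 3296 CPM of nve-miR-2025-3p in NveAGO1 IPs and 6253 and 4171 CPM in NveAGO2 IPs of adult males, but did not pass (log2 difference 3.26 and 3.29, edgeR adjusted p = 0.097 and 0.125). For nve-miR-2022-3p and nve-miR-2028-5p the side was the same at the 3 stages. In adult males nve-miR-2022-3p had 275 and 176 CPM in NveAGO1 IPs and 9.64 and 8.19 CPM in NveAGO2 IPs. For nve-miR-2028-5p the adult levels were 160 and 98.4 CPM in NveAGO1 IPs and 7476 and 4084 CPM in NveAGO2 IPs.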

How the data were processed

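The authors used cutadapt to trim adapters (its version is not given in the sources used here). Reads on every precursor arm were counted with quantifier.pl of mirDeep2 2.0.0.8 at default settings, and the authors deposited these raw counts for 18 IP libraries. The genome build is not given in the sources used here. Near-identical arms can share reads in such counts. Genome-mapped reads per library (3724835 to 11593299 in early planulae) were taken from the study's supplement, and miRNA sequences likewise; miRNA counts ran from 11132 to 552836. In 1 primary polyp NveAGO1 library the miRNA counts came to 100.659% of the mapped reads listed.

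Arms that reached 10 counts in 2 or more of the 18 libraries were tested with edgeR 4.0.16 (quasi-likelihood F test, limma 3.58.1, R 4.3.3) in a fit of 9 groups with 9 residual degrees of freedom, with genome-mapped reads or summed miRNA counts as library sizes and Benjamini-Hochberg adjustment over all arms tested. Guide-to-star ratios were tested with the library as a block. DESeq2 1.42.0, other scales, filters, a replicate block and leaving out each library were alternatives. Duplexes were computed with ViennaRNA 2.7.2 and values summarised and drawn with matplotlib 3.10.9, scipy 1.17.1, numpy 2.4.6, pandas 2.3.3 and Python 3.11.15. The fits were checked on simulated data with known changes. The members and lists were chosen with earlier results of these data known.

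Named in the text were, in each direction, guides called by CPM without overlap, namely the 8 of highest mean CPM and the 4 of largest ratio among those with 50 counts or more; up to 6 stars and 6 guide-to-star ratios with the smallest p; the 10 highest guides of each protein; the miR-2024 and miR-2040 families, shared seeds and the list of miRNAs shared with other sea anemones and corals; and up to 4 named guides with the smallest p in each stage difference. Other arms named, such as numbers 47-1, 80, 50, 36-1 and 30, were chosen after their values were seen. Knockdown libraries were not used here.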

Additional observations from a re-analysis of the deposited data

Results flagged for a closer look

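In 7 arms the log2 ratio of NveAGO1 to NveAGO2 differed between early planulae and adult males in a test of the difference itself (edgeR, adjusted p under 0.05, by CPM). The difference, early planulae minus adult males, was 6.384 for nve-miR-2040a-3p, 8.165 for the star of newly annotated number 19, 4.699 for nve-miR-2024f-5p, −5.44 for nve-miR-9422, −7.364 for newly annotated guide number 66, −5.699 for nve-miR-9413 and −5.166 for nve-miR-2043a-3p. nve-miR-2024f-5p had 7.45 and 9.75 CPM in NveAGO1 IPs and 24.0 and 18.4 CPM in NveAGO2 IPs of adult males, the opposite order to early planulae. nve-miR-9422 and nve-miR-9413 reached at most 2.76 CPM in the Argonaute libraries of early planulae but 600 and 1432 CPM and 1656 and 2177 CPM in the NveAGO1 libraries of adult males. In IgG IPs of early planulae nve-miR-9422 had 2.07 and 8.05 CPM and nve-miR-9413 had 0.940 and 16.4 CPM, so that IgG library 2 stood above every early planula Argonaute library for both. The star of number 19 was read 2 and 4 times in NveAGO1 IPs of early planulae and not in NveAGO2 IPs, so its fitted value is no measured size, and newly annotated guide number 66 had no count in NveAGO1 IPs of early planulae. Apart from nve-miR-2040a-3p, each of these calls was lost without at least 3 of the 4 early planula libraries in turn (nve-miR-2024f-5p with edgeR adjusted p of 0.0988 to 0.225).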

How the results depend on the processing

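The calls by CPM ranged from 10 to 18 higher and 24 to 77 lower arms with each library left out, and were 46 and 44 with TMM factors and 43 and 44 with DESeq2's median-of-ratios. By miRNA share the lower arms ranged from 10 to 37. Calls of the difference from primary polyps, 0 by genome-mapped reads, were 47 by miRNA counts and 3 with TMM factors, and those from adult males, 7, were 74 and 35, and 1 to 7 with a library left out. The sign of the ratio by CPM turned for newly annotated guide number 44-1 (−1.37; 0.53 with TMM factors, 0.37 with DESeq2, −2.12 to 0.23 with a library left out), number 44-2 (−0.73; 1.18, 1.01, −1.48 to 0.89) and nve-miR-2036-3p (−0.25; 1.53, 1.27, −0.76 to 0.54). By miRNA share it turned with a library left out for number 44-1 (−0.086 to 1.16), number 49 (−1.11 to 0.0054), nve-miR-2029-3p (−0.50 to 0.18) and nve-miR-2040a-5p (−0.91 to 0.34). The cause was not tested. The replicate block gave 23 higher and 65 lower arms by CPM, 47 and 43 by miRNA share, and 15 and 10 guide-to-star ratios. Libraries of one number correlated at −0.185 in their deviations in early planulae, and the crossed pairing, added after the data were seen, gave 20 and 65, and 47 and 47. Arms under 10 counts over the 4 libraries, 31 of those tested, are limited by depth, and with 2 libraries for each protein many differences cannot pass.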
